A study of Homo sapiens with 22 samples.

Results

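The genes described here are 8 multidrug efflux pump genes of the ATP-binding cassette (ABC) superfamily: ABCB1, ABCB4, ABCC1, ABCC2, ABCC3, ABCC4, ABCC5 and ABCG2. They were chosen by symbol, as known drug pumps, from the 35237 gene rows of a table of RNA-seq read counts. The table covers 22 libraries from neuroblastoma, a tumour of the sympathetic nervous lineage, grown as the established human cell lines SK-N-AS and GIMEN. The labels call both lines MES, and the study compared untreated cells with cells kept under PP121 and bufalin. PP121 is a small-molecule inhibitor of tyrosine kinases and phosphoinositide kinases, and bufalin is a cardiac glycoside that blocks the sodium-potassium pump. Untreated SK-N-AS cells were grown in DMEM with 10% fetal bovine serum (n = 4). In the first step, called S1D4, SK-N-AS cells received 5 µM PP121 in 1% serum for 4 days (n = 4). Cells of that step were then moved to 5 µM PP121 plus 100 nM bufalin in serum-free Neurobasal medium with B27, where they stayed 4 days in the group S2D4 (n = 4) and 30 days in the group S2D30 (n = 4). Untreated GIMEN cells grew in RPMI with 10% serum (n = 3), and treated ones received 2.5 µM PP121 plus 10 nM bufalin in RPMI with 1% serum for 30 days (D30, n = 3). No group used here had the low-serum or serum-free medium without the compounds, so compound, medium, serum and time cannot be told apart, and the doses differed between the lines. Nothing in the labels says whether libraries of a group came from separate cultures, so a p-value here measures only the spread between these libraries, which may be technical.

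ABC transporters use the energy of ATP to move molecules across membranes, and the drug pumps among them sit in the plasma membrane and export a wide range of compounds. ABCB1 encodes P-glycoprotein, which exports bulky hydrophobic drugs and cardiac glycosides, and ABCB4 encodes its close relative, the phosphatidylcholine floppase of the bile canaliculus. ABCC1 to ABCC5 encode multidrug resistance-associated proteins (MRPs), which export organic anions, conjugates with glutathione or glucuronide, and, for ABCC4 and ABCC5, cyclic nucleotides and nucleotide analogs. ABCG2 encodes the breast cancer resistance protein, which works as a dimer and is known from stem-like cells and the blood-brain barrier. In neuroblastoma, expression of ABCC1 and ABCC4 in tumours has long been studied as a marker of outcome.

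The sequences that flank the starts of 4 of these genes are shown because each of these genes had a pattern of its own: ABCB1 was high in S2D4, ABCC5 in S1D4, ABCC2 after 30 days in both lines, and ABCG2 was seen above a few counts in S2D30. Each is the run of 250 bases before a RefSeq transcription start, 5′ to 3′ on the gene's strand (RefSeq, build GRCh38.p14), and capitals mark matches on either strand to 7 short motifs. The motifs were the GC box (GGGCGG), the inverted CCAAT box (ATTGG), the AP-1 site (TGANTCA), the core of the antioxidant response element (TGACNNNGC), the E-box (CACGTG), the FOXO site (GTAAACA) and the TATA box (TATAAA).
ABCB1, chr7:87600885-87601134, minus strand: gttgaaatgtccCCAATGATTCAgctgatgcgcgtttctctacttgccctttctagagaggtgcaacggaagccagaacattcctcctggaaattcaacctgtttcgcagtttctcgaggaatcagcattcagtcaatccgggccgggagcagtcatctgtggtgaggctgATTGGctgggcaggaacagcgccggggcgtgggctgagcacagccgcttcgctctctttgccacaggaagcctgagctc
ABCC2, chr10:99782390-99782639, plus strand: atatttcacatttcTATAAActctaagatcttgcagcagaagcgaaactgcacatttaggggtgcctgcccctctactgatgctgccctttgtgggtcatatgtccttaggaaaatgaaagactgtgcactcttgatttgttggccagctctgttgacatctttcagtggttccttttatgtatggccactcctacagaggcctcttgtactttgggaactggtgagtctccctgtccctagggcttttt
ABCC5, chr3:184017885-184018134, minus strand: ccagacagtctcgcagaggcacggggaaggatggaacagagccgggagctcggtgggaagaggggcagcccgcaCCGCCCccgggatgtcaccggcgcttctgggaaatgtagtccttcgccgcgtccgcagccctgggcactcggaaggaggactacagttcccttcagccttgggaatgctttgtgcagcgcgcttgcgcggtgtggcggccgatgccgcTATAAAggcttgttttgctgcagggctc
ABCG2, chr4:88158860-88159109, minus strand: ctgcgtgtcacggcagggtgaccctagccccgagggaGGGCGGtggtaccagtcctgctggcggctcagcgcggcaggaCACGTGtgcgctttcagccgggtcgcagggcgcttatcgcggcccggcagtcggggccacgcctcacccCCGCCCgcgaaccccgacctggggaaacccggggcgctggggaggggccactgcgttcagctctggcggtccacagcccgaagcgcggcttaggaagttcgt
The ABCB1 window held 2 matches to the inverted CCAAT motif, on opposite strands. The upstream match reads CCAAT on the gene's strand, so it is not inverted there, and it shares its last base with an AP-1 match. The ABCC2 window held a TATA box far from the start, while the ABCC5 window held a TATA box close to the start and a GC box. The ABCG2 window held 2 GC boxes and an E-box. Of 27305 promoter windows of the same length in the same table, 33.0% held the inverted CCAAT motif on either strand. The shares were 6.6% for an AP-1 site, 11.1% for a TATA box, 42.3% for a GC box and 6.49% for an E-box. The other motifs, found in none of these 4 windows, were in 11.0% (antioxidant response element core) and 2.98% (FOXO site) of all windows. GC content was 55.6% for ABCB1, 45.6% for ABCC2, 64.8% for ABCC5 and 72.4% for ABCG2, with a median of 58.0% over all windows. A second ABCB1 start in the table, upstream of this one, held none of the 7 motifs. ABCG2 had 5 starts in all: an overlapping window held the same GC boxes and E-box, and the others held none of the motifs. The shares over all windows rest on a single window per gene, the first listed. The ABCB1 and ABCG2 windows shown are not the first listed of their genes. ABCC4 had a window with an antioxidant response element core and a GC content of 80.4%, and the table gave no entry for ABCB4, ABCC1 or ABCC3. A match describes the letters only, and no binding was measured.

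Total counts per library ran from 16456484 to 37506800. Of 8 adrenergic neuroblastoma markers, all had counts in untreated SK-N-AS, with a summed level of 1541.3 to 1783.1 CPM (counts scaled to a common library size by TMM over all 22 libraries), against 943.3 to 1471.5 for 8 mesenchymal markers. In untreated GIMEN the adrenergic sum was 451.2 to 474.2 CPM, of which HAND2 made up 351.1 to 369.2 CPM. The mesenchymal sum there was 37863.0 to 39460.0 CPM, of which FN1, the fibronectin gene, made up 30285.9 to 32194.7 CPM. Untreated SK-N-AS thus had the higher adrenergic sum of the lines, above its own mesenchymal sum, beside its MES label. With treatment the adrenergic sum in SK-N-AS was 210.1 to 255.3 CPM and the mesenchymal sum 3177.2 to 3876.2 CPM in S2D30. In GIMEN D30 the sums were 245.3 to 293.3 and 20679.1 to 23758.4 CPM. Markers of other cell types that use these pumps were mostly near 0. The sum of 8 endothelial markers was at most 15.2 CPM in SK-N-AS and 31.0 CPM in GIMEN, where it was nearly all PECAM1, and CD3E was at 0 in each SK-N-AS library. The leukocyte sum of 159.9 to 207.6 CPM in untreated SK-N-AS was nearly all PTPRC, and it was 4.91 to 8.56 CPM in S2D30. The hepatocyte sum of 111.8 to 120.3 CPM in untreated GIMEN was SERPINA1, with ALB, TTR and FGB at 0 there. The sum of 6 Schwann and glial markers was at most 9.72 CPM. One library stood apart: S2D4 replicate 4 correlated at 0.955 to 0.958 with the rest of its group across 13954 genes, while the others reached 0.992. It was the highest of its group for ABCC3 and ABCC1 and the lowest for ABCB1, ABCC2, ABCC4 and ABCC5, so pump gene results that rest on it are given with and without it. The S2D4 results of the gene lists further below are given only with all libraries.

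Calls below are from edgeR's quasi-likelihood test, at a Benjamini-Hochberg adjusted p under 0.05 over all genes of a model, and levels are CPM per library in the order of the replicate numbers. In SK-N-AS, 6 of the 8 genes passed the filter on low counts. ABCC5 rose and ABCC1 fell in S1D4 (1 and 1 of 6), where 17.6% of all 15810 tested genes were called higher and 22.4% lower, 40.1% together. ABCB1 rose and ABCC1 fell in S2D4 (1 and 1 of 6), where 30.9% were called higher and 32.2% lower, 63.1% together. ABCC2 rose and ABCB1 and ABCC1 fell in S2D30 (1 and 2 of 6), where 33.8% were called higher and 36.5% lower, 70.3% together. From S1D4 to S2D4, 1 pump gene rose and 2 fell, against 28.3% and 26.8% of all genes (55.1% together), and from S2D4 to S2D30, 1 rose and 2 fell, against 24.4% and 26.9% (51.3% together). Between the untreated lines, ABCB1, ABCC3, ABCC4 and ABCC5 were higher in SK-N-AS (4 of 7 tested) and ABCC1 was lower. Of 16246 genes, 38.6% were higher and 35.3% lower (73.9% together). ABCB4, among the 7, passed that model's filter only through GIMEN, so its difference is not counted. In GIMEN D30, 5 of the 7 tested pump genes rose (ABCB4, ABCC1, ABCC2, ABCC3 and ABCC5) and none fell, where 35.5% of all 13517 genes tested were called higher and 36.0% lower, 71.4% together. The median log2 change of the tested pump genes was 0.19 in S1D4, 0.35 in S2D4, -0.22 in S2D30 and 0.78 in GIMEN D30, beside -0.01, -0.02, -0.03 and 0.02 over all genes. The comparisons of S1D4, S2D4 and S2D30 with untreated cells share the same 4 untreated libraries. In bulk RNA, fewer cells that express a gene and less RNA per cell cannot be told apart.

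**Figure D1:**
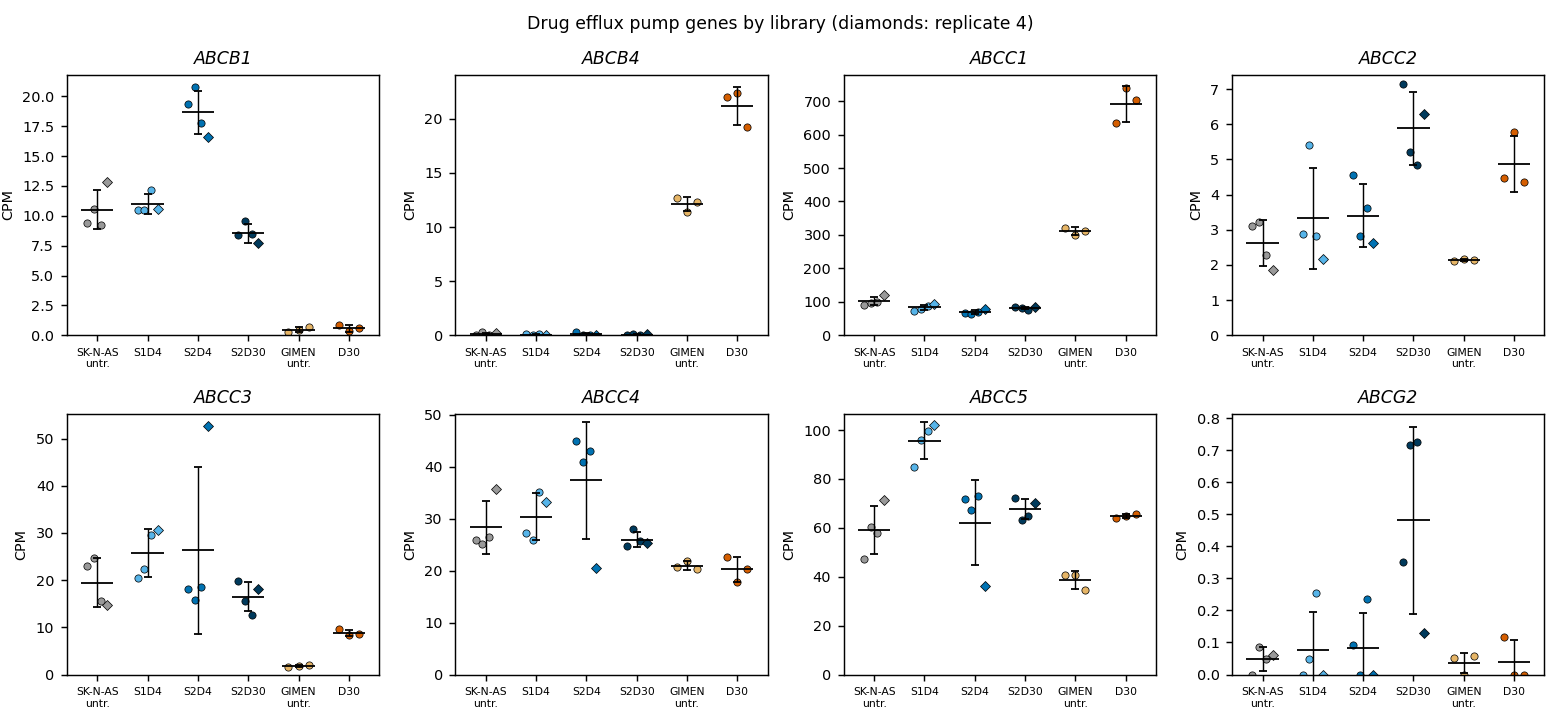
Level of each pump gene in CPM (y axis, linear) in each library of the 6 groups (x axis); points are libraries, diamonds replicate 4, the long bar is the group mean and the error bar its SD. ABCB1 is highest in S2D4 (16.6 to 20.8 CPM), ABCC1 in GIMEN D30 (635.0 to 740.0 CPM), and the S2D4 diamond lies apart for ABCC3, ABCC4 and ABCC5.

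P-glycoprotein RNA went up and then down along the SK-N-AS treatment. ABCB1 was at 9.40, 10.6, 9.26 and 12.8 CPM in untreated cells and at 10.5, 10.5, 12.2 and 10.6 CPM in S1D4. In S2D4 it was at 19.4, 20.8, 17.8 and 16.6 CPM, and in S2D30 at 8.42, 9.57, 8.47 and 7.69 CPM. Each S2D4 library lay above each library of the other groups, while S1D4 lay within the untreated range. S1D4 against untreated cells gave a log2 change of 0.03 (95% interval -0.22 to 0.29, adjusted p = 0.859). S2D4 was 1.73-fold above untreated cells (log2 change 0.79 ± 0.12 SE, adjusted p = 2.8e-05) and 1.69-fold above S1D4 (0.76 ± 0.12, adjusted p = 6.39e-05). The rise over untreated cells was 0.84 without S2D4 replicate 4. From S2D4 to S2D30 ABCB1 fell 2.18-fold (log2 change -1.13 ± 0.12, adjusted p = 1.27e-06). In S2D30 it ended below untreated cells (log2 change -0.34 ± 0.12, adjusted p = 0.0217), with ranges that overlap. That last call was lost without untreated replicate 4 (-0.23, adjusted p = 0.101) or without S2D30 replicate 4 (-0.29, adjusted p = 0.0678).

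In GIMEN, ABCB1 was close to the limit of the counts. It had 5, 9 and 12 counts (0.258, 0.442 and 0.678 CPM) in untreated cells and 15, 5 and 9 counts (0.881, 0.317 and 0.578 CPM) in D30. The groups overlapped, and the log2 change of 0.36 had a 95% interval from -0.76 to 1.48 (adjusted p = 0.540). Untreated SK-N-AS held 22.6-fold more ABCB1 RNA than untreated GIMEN (log2 difference 4.50 ± 0.28, adjusted p = 1.99e-10). The culture medium differed between the lines.

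ABCB4, the neighbour of ABCB1 on chromosome 7, showed the opposite order of the lines. It was at 12.7, 11.4 and 12.3 CPM in untreated GIMEN and at 22, 22.4 and 19.2 CPM in D30, with no overlap. Treated GIMEN was 1.71-fold higher (log2 change 0.78 ± 0.10, adjusted p = 2.86e-05). SK-N-AS libraries had 1, 6, 0 and 6 counts when untreated and 3, 0, 2 and 1 in S1D4. There were 6, 1, 0 and 0 counts in S2D4, and 1, 2, 0 and 2 in S2D30. No SK-N-AS library exceeded 0.279 CPM, and ABCB4 did not pass the filter there. A count of 0 in 1 library allows up to 3 counts, and such limits and the count intervals below cover counting error only. Over the untreated groups, 698 GIMEN counts stood against 13 SK-N-AS counts, a ratio per scaled library size of 109.5 (95% interval for counting error 63.6 to 206.6). ABCB4 passed the filter of the model with both lines through its GIMEN libraries, so no test of this difference is given.

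How the authors treated reads that match several genes is not given in the sources used here, and ABCB1 and ABCB4 are alike in sequence. In GENCODE v29 they shared 54 stretches of 75 bases, which is 0.909% of the stretches of ABCB1 and 0.674% of those of ABCB4. The lesser gene of the pair held 0.658% of their summed counts in SK-N-AS (31 ABCB4 counts beside 4683 of ABCB1) and 3.09% in GIMEN (55 ABCB1 counts beside 1725 of ABCB4). The few counts of the lesser gene in each line are therefore uncertain, and whether they are reads of the other gene was not tested.

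ABCC1, the MRP1 gene, moved in opposite directions in the lines. In SK-N-AS it was at 91.8, 97.0, 99.0 and 118.9 CPM when untreated and 73.8, 79.1, 87.3 and 92.3 CPM in S1D4. The S2D4 libraries were at 66.4, 64.4, 69.1 and 78.8 CPM, and the S2D30 libraries at 84.0, 80.4, 76.2 and 84.0 CPM. All S2D4 and S2D30 libraries lay below all untreated ones, and S1D4 overlapped with them by its highest library. ABCC1 fell 1.24-fold in S1D4 (log2 change -0.32 ± 0.09, adjusted p = 0.0123), 1.49-fold in S2D4 (-0.58 ± 0.09, adjusted p = 4.44e-05) and 1.28-fold in S2D30 (-0.36 ± 0.09, adjusted p = 0.00238). The further step from S1D4 to S2D4 (-0.26 ± 0.09, adjusted p = 0.0241) was lost without S1D4 replicate 3 or 4 or without S2D4 replicate 1 or 2, at adjusted p = 0.0648, 0.0884, 0.0655 and 0.077. It was also lost with no filter on low counts (-0.25, adjusted p = 0.0688) and with a term for replicates 3 and 4 of the untreated and S1D4 groups (-0.15, adjusted p = 0.139). From S2D4 to S2D30 the change of 0.22 did not pass (adjusted p = 0.0599), and it did without S2D4 replicate 4 (0.28, adjusted p = 0.0155) and under 8 alternatives with all libraries (0.22 to 0.28, adjusted p = 0.00107 to 0.0479).

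In GIMEN, ABCC1 was at 321.8, 299.2 and 313.0 CPM when untreated and 635.0, 740.0 and 702.1 CPM in D30. The groups were far apart, and the rise was 2.18-fold (log2 change 1.13 ± 0.07, adjusted p = 9.07e-08). Already without treatment GIMEN held 3.10-fold more ABCC1 RNA than SK-N-AS (log2 difference of SK-N-AS against GIMEN -1.63 ± 0.09, adjusted p = 2.25e-11).

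ABCC2, the canalicular MRP2 gene, was low and rose after 30 days in both lines. In SK-N-AS it was at 3.12, 3.23, 2.29 and 1.86 CPM when untreated and 7.15, 5.22, 4.85 and 6.30 CPM in S2D30. The libraries were at 2.89, 5.42, 2.83 and 2.17 CPM in S1D4 and at 4.56, 2.82, 3.62 and 2.62 CPM in S2D4, and both groups overlapped with untreated cells. S2D30 did not overlap with untreated cells or with S2D4, and S1D4 replicate 2 lay above 2 of its libraries. The rise over untreated cells was 2.18-fold (log2 change 1.12 ± 0.28, adjusted p = 0.00187), while S1D4 (0.31, adjusted p = 0.414) and S2D4 (0.34, adjusted p = 0.311) did not pass. Against S2D4 the rise was 1.73-fold (0.79 ± 0.28, adjusted p = 0.0261), a call lost without S2D4 replicate 2 (0.71, adjusted p = 0.0699) or 4 (0.67, adjusted p = 0.0613), or S2D30 replicate 1 (0.68, adjusted p = 0.0795) or 4 (0.75, adjusted p = 0.0576). In GIMEN, ABCC2 was at 2.11, 2.16 and 2.15 CPM when untreated and 4.46, 5.78 and 4.37 CPM in D30. That is a rise of 2.23-fold with no overlap (log2 change 1.15 ± 0.21, adjusted p = 0.000409). The untreated lines did not pass a test of their difference (log2 difference 0.28, 95% interval -0.22 to 0.79, adjusted p = 0.295), and passed it with the term for replicates 3 and 4 (0.57, adjusted p = 0.0389).

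ABCC3, the MRP3 gene, which exports glucuronide conjugates and bile salts, had the largest change of the pump genes tested in GIMEN. It was at 1.70, 1.72 and 2.09 CPM when untreated and at 9.63, 8.38 and 8.54 CPM in D30. The rise was 4.73-fold with no overlap (log2 change 2.24 ± 0.18, adjusted p = 4.95e-07). The hepatocyte marker sum, nearly all SERPINA1, was 40.9 to 51.7 CPM in those D30 libraries, below its untreated range. Whether that sum bears on ABCC3 was not tested. In SK-N-AS, ABCC3 was at 22.9, 24.8, 15.5 and 14.7 CPM when untreated and 20.5, 22.3, 29.5 and 30.6 CPM in S1D4. The S2D4 libraries were at 18.2, 15.8, 18.5 and 52.7 CPM, and the S2D30 libraries at 19.8, 15.5, 12.7 and 18.1 CPM. All treated groups overlapped with untreated cells. No comparison of SK-N-AS groups passed, with log2 changes of 0.37 in S1D4 (adjusted p = 0.381), 0.40 in S2D4 (adjusted p = 0.282) and -0.28 in S2D30 (adjusted p = 0.453). The S2D4 value turned to -0.19 (adjusted p = 0.425) without replicate 4, the library at 52.7 CPM. Without it S2D4 was below S1D4 (-0.56, adjusted p = 0.0258), where all libraries gave 0.03 (adjusted p = 0.946). From S2D4 to S2D30 the change was -0.68 (95% interval -1.36 to 0.00, adjusted p = 0.0892), and it was -0.09 (adjusted p = 0.741) without S2D4 replicate 4 and -0.86 (adjusted p = 0.0375) without S2D4 replicate 2. Untreated SK-N-AS held 10.5-fold more ABCC3 RNA than untreated GIMEN (log2 difference 3.39 ± 0.24, adjusted p = 1.15e-09).

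ABCC4, the MRP4 gene, gave no call against untreated cells in either line. In GIMEN it was at 20.7, 21.9 and 20.3 CPM when untreated and 22.6, 17.8 and 20.4 CPM in D30. The groups overlapped, and the log2 change of -0.07 had a 95% interval from -0.29 to 0.15 (adjusted p = 0.531). In SK-N-AS it was at 26.0, 25.1, 26.4 and 35.8 CPM when untreated and 27.2, 26.0, 35.2 and 33.3 CPM in S1D4. The S2D4 libraries were at 44.9, 41.0, 43.0 and 20.6 CPM, and the S2D30 libraries at 24.8, 28.0, 25.8 and 25.4 CPM. In S2D4, replicates 1 to 3 lay above and replicate 4 below all untreated libraries. With all libraries the S2D4 change was 0.36 (95% interval -0.04 to 0.77, adjusted p = 0.107), and without S2D4 replicate 4 it was 0.57 (adjusted p = 0.000592). It also passed without untreated replicate 4 (0.50, adjusted p = 0.0411) and with the term for replicates 3 and 4 (0.52, adjusted p = 0.0318). Against S1D4, S2D4 gave 0.28 with all libraries (adjusted p = 0.22) and 0.49 without replicate 4 (adjusted p = 0.00244). From S2D4 to S2D30 ABCC4 fell (-0.52 ± 0.19, adjusted p = 0.0311), with -0.73 without S2D4 replicate 4 (adjusted p = 8.62e-05). Leaving out S2D4 replicate 1, 2 or 3 ended that call, at adjusted p = 0.0962, 0.0716 and 0.0861, as did S2D30 replicate 1, 3 or 4, at 0.0691, 0.0605 and 0.0642. It was also lost under upper-quartile factors (-0.48, adjusted p = 0.0583) and with the compared groups alone (-0.52, adjusted p = 0.0743). Between the untreated lines, SK-N-AS was 1.34-fold higher (0.42 ± 0.12, adjusted p = 0.00374).

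ABCC5, the MRP5 gene, was the pump gene called higher in S1D4, the step with PP121 in 1% serum. Untreated SK-N-AS libraries were at 47.4, 60.3, 58.0 and 71.2 CPM and S1D4 libraries at 84.9, 96.0, 99.8 and 101.9 CPM, with no overlap. The rise was 1.59-fold (log2 change 0.67 ± 0.17, adjusted p = 0.00517). In S2D4 it was at 72, 67.2, 73.2 and 36.3 CPM and in S2D30 at 72.1, 63.4, 64.9 and 70.2 CPM, so all libraries of both groups lay below S1D4. The fall from S1D4 to S2D4 was 1.55-fold (-0.63 ± 0.17, adjusted p = 0.00506), and -0.44 (adjusted p = 0.00191) without S2D4 replicate 4. Against untreated cells neither S2D4 (0.04, 95% interval -0.33 to 0.40, adjusted p = 0.866) nor S2D30 (0.16, 95% interval -0.20 to 0.52, adjusted p = 0.420) passed. In GIMEN, ABCC5 was at 40.9, 40.9 and 34.6 CPM when untreated and 64.0, 64.7 and 65.5 CPM in D30. The rise was 1.64-fold with no overlap (0.71 ± 0.07, adjusted p = 5.07e-06). Between the untreated lines, SK-N-AS was higher (0.59 ± 0.10, adjusted p = 8.08e-05).

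ABCG2 was at or near the limit of the counts in each group but S2D30. The untreated SK-N-AS libraries had 0, 2, 1 and 2 counts and the S1D4 libraries 0, 1, 6 and 0. There were 2, 0, 5 and 0 counts in S2D4, and 8, 14, 16 and 3 in S2D30. In GIMEN they were 1, 0 and 1 when untreated and 2, 0 and 0 in D30. Each S2D30 library lay above each untreated SK-N-AS library, at 0.351, 0.717, 0.725 and 0.130 CPM, and replicate 4 lay below the highest S1D4 and S2D4 libraries. ABCG2 passed the filter on low counts in none of the models. Its summed counts per scaled library size in S2D30 were 11.0 times those of untreated cells, from 41 and 5 counts (95% interval for counting error 4.34 to 35.6), and 6.16 times those of S2D4 (2.74 to 16.3). An edgeR fit with no filter gave adjusted p = 0.0104 against untreated cells and adjusted p = 0.0538 against S2D4. The ABCG2 level in S2D30 was a small part of pump RNA, 0.316% of the sum of all 8 genes per kilobase.

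Levels can be compared between genes only per length, so CPM was divided by the length in kilobases of the longest protein-coding transcript of each gene in GENCODE v29. On that scale the mean level in untreated SK-N-AS was 15.4 for ABCC1, 10.0 for ABCC5, 4.84 for ABCC4, 3.41 for ABCC3, 2.20 for ABCB1 and 0.452 for ABCC2, with ABCB4 and ABCG2 at 0.0275 and 0.0110. ABCC4, ABCC3 and ABCB1 followed each other with overlapping libraries, as did ABCB4 and ABCG2, and the other neighbours did not overlap. In S1D4 the first places changed, with ABCC5 at 16.2 above ABCC1 at 12.6 and no overlap. This order turned when the merged length of all exons was used, with ABCC1 at 11.0 and ABCC5 at 8.36. In S2D4 the first 5 genes, from ABCC1 at 10.6 to ABCB1 at 3.90, each overlapped with the next. In S2D30 ABCC1 (12.3) and ABCC5 (11.4) overlapped, and ABCC4 (4.44), ABCC3 (2.89), ABCB1 (1.79) and ABCC2 followed without overlap.

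The GIMEN profile was steeper. ABCC1 per kilobase was 47.2 in untreated GIMEN and 105.0 in D30, which was 77.4% and 82.8% of the sum of the 8 genes, against 42.4% in untreated SK-N-AS. ABCC5 came next at 6.55 and 10.9. ABCB4 moved from 2.85, below ABCC4 at 3.58, to 4.97, above ABCC4 at 3.46, with no overlap in either group. ABCC2 and ABCC3 overlapped in untreated GIMEN (0.369 and 0.321), and in D30 ABCC3 at 1.55 lay above ABCC2 at 0.839. The 8 genes summed to 36.4 ± 3.90 (SD, n = 4) in SK-N-AS when untreated, to 41.4 ± 4.00 in S1D4, to 36.6 ± 1.60 in S2D4 and to 34.0 ± 1.66 in S2D30. In GIMEN it was 61.0 ± 1.79 (SD, n = 3) when untreated and 126.9 ± 7.63 in D30, and the GIMEN libraries of both groups lay apart.

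**Figure D2:**
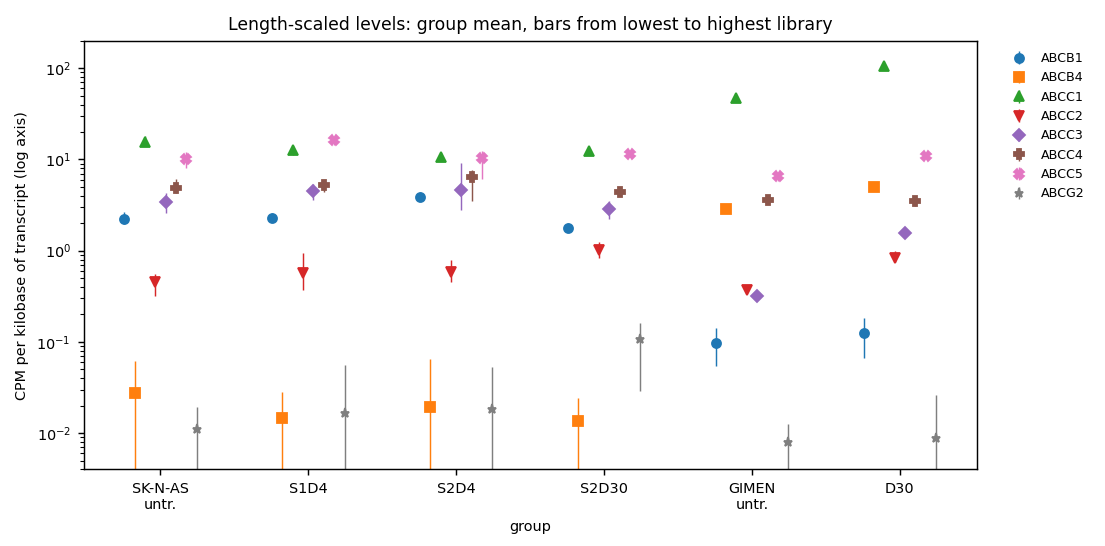
Mean level of each pump gene in CPM per kilobase of transcript (y axis, log scale) in the 6 groups (x axis); bars run from the lowest to the highest library, and bars that leave the lower edge reach 0. ABCC1 stands furthest above the rest in GIMEN, at 47.2 and 105.0, and ABCB1 and ABCB4 trade places between the lines.

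Whether a pump gene changed differently over 30 days in SK-N-AS and GIMEN was tested with an interaction term over the 14 untreated and 30-day libraries. The change was lower in SK-N-AS for 3 of 7 pump genes, with ABCB4 among the 7, and higher for none. Of 16246 genes, 25.2% were lower and 24.5% higher (49.7% together). The change of ABCC1 was lower in SK-N-AS by a log2 difference of -1.5 ± 0.12 (adjusted p = 3.94e-08), that of ABCC3 by -2.54 ± 0.31 (adjusted p = 4e-06) and that of ABCC5 by -0.57 ± 0.15 (adjusted p = 0.00398). ABCC1 fell in SK-N-AS and rose in GIMEN, while ABCC3 and ABCC5 rose in GIMEN and gave no call in SK-N-AS. The ABCC5 difference was -0.55 (adjusted p = 0.0677) in a model of all 22 libraries. ABCC2 differed by -0.05 (95% interval -0.73 to 0.63, adjusted p = 0.939), ABCC4 by -0.10 (-0.45 to 0.24, adjusted p = 0.642) and ABCB1 by -0.72 (-1.64 to 0.20, adjusted p = 0.187). ABCB4 had 13 summed counts in untreated SK-N-AS and 5 in S2D30, too few for a test of its change in that line. The difference in dose and medium between the lines cannot be told apart from the line itself.

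**Figure D3:**
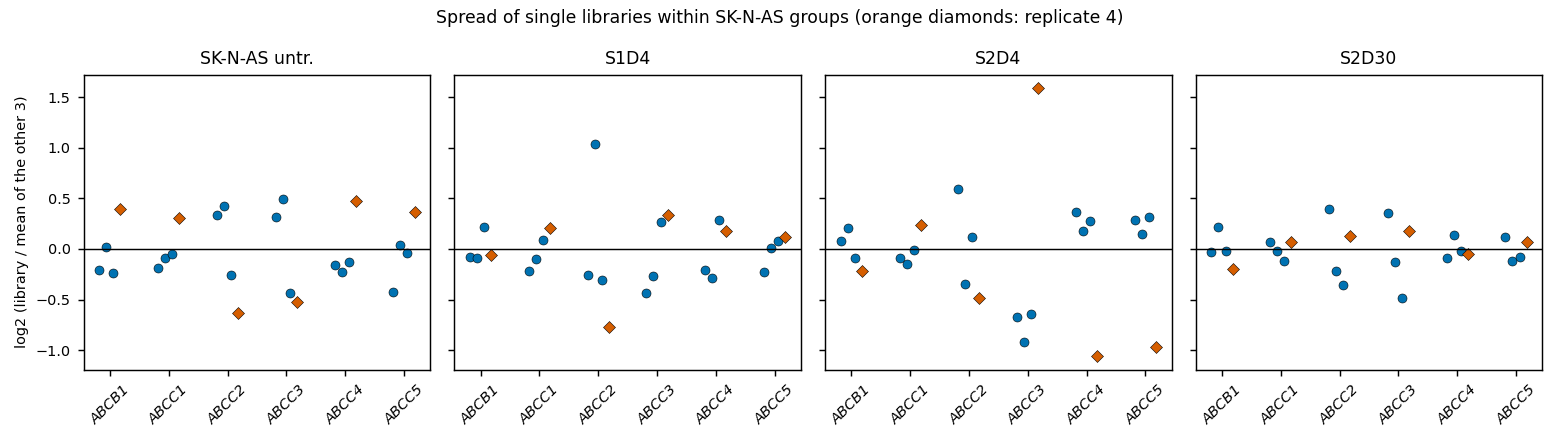
Log2 ratio of each SK-N-AS library to the mean of the other 3 of its group (y axis) for the 6 tested pump genes (x axis), 1 panel per group; orange diamonds are replicate 4. In S2D4 replicate 4 lies at 1.59 for ABCC3, -1.06 for ABCC4 and -0.97 for ABCC5, further out than any library of the other groups except for 1 S1D4 library of ABCC2.

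The course of each pump gene over the 6 groups was compared with that of 13954 genes, as the root mean square difference of centred log2 group means. Among the pump genes ABCC4 and ABCC5 were most alike (0.36) and ABCB1 and ABCB4 least alike (5.24). Nearest to ABCB1 were IL15RA (0.24), which encodes the interleukin 15 receptor alpha chain, TKTL1 (0.27), a transketolase-like enzyme, and KLF15 (0.29), a zinc finger transcription factor. Nearest to ABCC1 were DDR2 (0.16), a collagen receptor kinase, LIMD1 (0.23) and MBTPS1 (0.24), the site-1 protease of the Golgi. Nearest to ABCC3 were KSR1 (0.25), a scaffold of the MAP kinase cascade, SYCP2 (0.25) and TRANK1 (0.27). Nearest to ABCB4 were RP11-529A4.4 (0.25), HBE1 (0.26), the embryonic epsilon globin, and AFF2 (0.33). The flatter genes had closer neighbours: RFK, DIRC2 and PTGR2 (0.08, 0.08 and 0.09) for ABCC2, TARS2, TRAPPC13 and METTL18 (0.04, 0.04 and 0.06) for ABCC4, and, after a row with a clone name (0.08), WDR5B and PTDSS2 (0.11 and 0.12) for ABCC5. With 6 groups many genes come close by construction, so these names are a description.

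Of 40 other ABC transporter genes, which move lipids, peptides and other substrates, 31 were tested in SK-N-AS and 26 in GIMEN. In S1D4, 10 rose and 8 fell, in S2D4, 10 rose and 9 fell, in S2D30, 13 rose and 9 fell, and in GIMEN D30, 14 rose and 8 fell. Called shares were 58.1%, 61.3%, 71.0% and 84.6% of the tested genes, beside 40.1%, 63.1%, 70.3% and 71.4% of all genes. Over all genes, 17.6% rose and 22.4% fell in S1D4, 30.9% and 32.2% in S2D4, 33.8% and 36.5% in S2D30, and 35.5% and 36.0% in GIMEN D30. The largest fall in SK-N-AS was that of ABCD2, a peroxisomal transporter of very long-chain fatty acids, from 9.75 to 15.2 CPM when untreated to 0.0512 to 0.362 CPM in S2D30 (log2 change -5.71 ± 0.41, adjusted p = 2.64e-09). ABCA13 did not exceed 0.124 CPM when untreated and lay between 3.89 and 5.79 CPM in S2D30. It passed the filter on low counts only through S2D30, so no test of its difference is given. The 13 genes that rose in S2D30 include it. ABCG1, a sterol exporter, rose in S1D4 (1.83 ± 0.29, adjusted p = 9.46e-05) and ABCA1, the cholesterol and phospholipid exporter, in S2D4 (2.39 ± 0.39, adjusted p = 5.41e-05). In GIMEN D30, ABCA3, a lipid transporter of lamellar bodies, went from 1.47 to 2.11 CPM up to 14.8 to 19.7 CPM (3.20 ± 0.18, adjusted p = 2.42e-08), and TAP1, a peptide transporter of antigen presentation, rose by 2.28 ± 0.15 (adjusted p = 1.08e-07). ABCA6 fell (-2.99 ± 0.27, adjusted p = 1.37e-06), as did the ribosome recycling factor ABCE1 (-0.95 ± 0.06, adjusted p = 1.2e-07). The median log2 change of the list was 0.06 in S2D30 and 0.42 in GIMEN D30. Of the 26 tested in both lines, 7 rose in both, 2 fell in both and 6 moved in opposite directions. Over all 13088 genes tested in both lines, 20.1% rose in both, 22.2% fell in both and 11.2% moved in opposite directions, and these shares are the background of all such counts here. Of 6 drug pump genes tested in both, ABCC2 rose in both and ABCC1 moved in opposite directions.

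**Figure D4:**
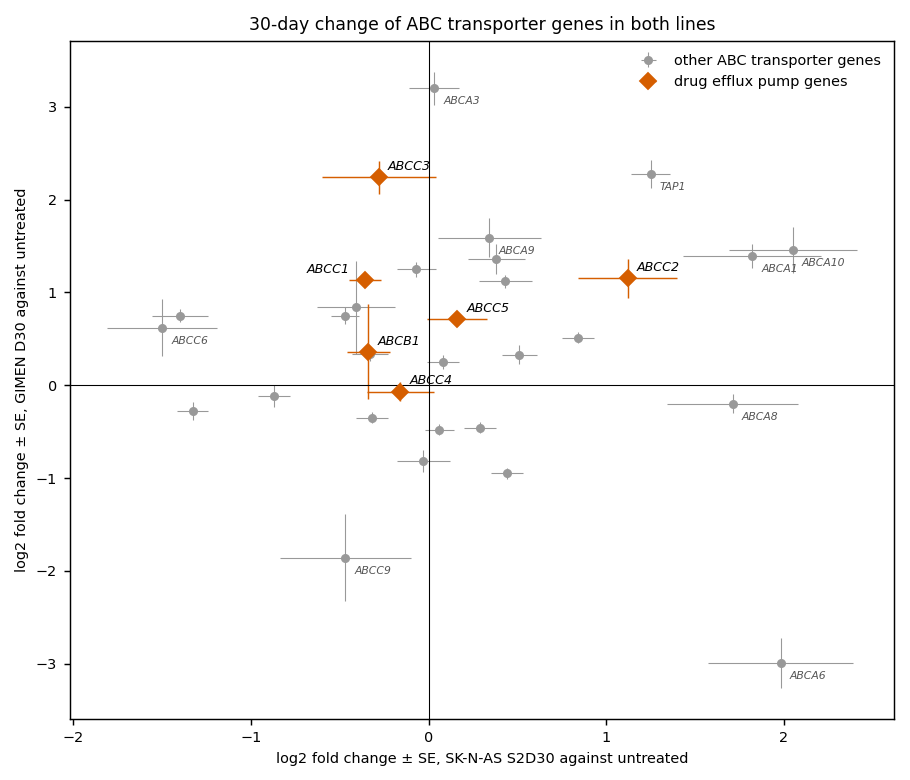
Log2 fold change after 30 days in GIMEN (y axis) against that in SK-N-AS (x axis) for ABC transporter genes tested in both lines; orange diamonds are drug pump genes, grey points the other ABC genes, and bars ± SE. ABCC2 lies above 1 on both axes, ABCC3 lies at 2.24 on the GIMEN axis alone, and ABCA3 (3.20) and ABCA6 (-2.99) are the extremes in GIMEN.

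Regulators known to act on pump genes were followed in a list of 29 genes, of which 27 were tested in SK-N-AS. In S1D4, 9 rose and 5 fell, in S2D4, 15 rose and 6 fell, and in S2D30, 16 rose and 7 fell. In GIMEN D30, 13 of 24 rose and 8 fell. Called shares in these comparisons were 51.9%, 77.8%, 85.2% and 87.5%, beside 40.1%, 63.1%, 70.3% and 71.4% of all genes. EGR1, an immediate early zinc finger factor, ran from 17.3 to 30.6 CPM when untreated, from 80.4 to 188.9 CPM in S1D4, from 844.7 to 1584.7 CPM in S2D4 and from 973.8 to 1217.8 CPM in S2D30 (log2 change in S2D4 5.84 ± 0.35, adjusted p = 5.82e-10). JUN, a subunit of AP-1, rose from 31.9 to 40.0 CPM to 260.6 to 450.5 CPM in S2D4 (3.45 ± 0.16, adjusted p = 3.85e-11). From S2D4 to S2D30 JUN fell (-0.82 ± 0.15, adjusted p = 0.000209), while EGR1 gave no call (-0.32 ± 0.28, adjusted p = 0.361). In S2D30 both EGR1 and JUN were still above their untreated range. Whether either acts on ABCB1 in these cells was not tested. EPAS1, the hypoxia-inducible factor 2 alpha gene, rose in S2D30 (4.82 ± 0.17, adjusted p = 7.85e-13). PPARG, a nuclear receptor, fell there (-2.55 ± 0.23, adjusted p = 4.88e-08). In GIMEN D30, FOS (4.86 ± 0.18, adjusted p = 8.37e-10) and FOXO1 (2.95 ± 0.14, adjusted p = 9.53e-09) rose, and MYC (-1.39 ± 0.10, adjusted p = 2.85e-07) and PPARG (-3.08 ± 0.27, adjusted p = 1.17e-06) fell. Of 24 regulators tested in both lines, 11 rose in both and 4 fell in both.

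Glutathione and conjugation enzymes make the substrates and cosubstrates of the MRPs, and 24 of 25 listed genes were tested in each line. In S1D4, 2 rose and 8 fell, and in S2D4, 4 rose and 13 fell. In S2D30, 12 rose and 11 fell, and in GIMEN D30, 10 rose and 8 fell. Called shares in the SK-N-AS comparisons were 41.7%, 70.8% and 95.8%, beside 40.1%, 63.1% and 70.3% of all genes. The called share in GIMEN D30 was slightly above the 71.4% of all genes. SLC7A11, the cystine importer that feeds glutathione synthesis, was at 3.82 to 8.74 CPM in untreated SK-N-AS and 58.3 to 87.1 CPM in S2D30 (3.47 ± 0.25, adjusted p = 1.87e-09). In GIMEN it went the other way, from 30.9 to 34.9 CPM down to 5.05 to 6.81 CPM (-2.45 ± 0.12, adjusted p = 9.08e-09), and the difference between the lines passed (5.91 ± 0.32, adjusted p = 3.25e-10). GCLC, the catalytic subunit of the first step of glutathione synthesis, rose in GIMEN D30 (1.89 ± 0.10, adjusted p = 1.8e-08). GGT1, which cleaves extracellular glutathione, rose in S2D30 (1.97 ± 0.18, adjusted p = 5.56e-08). The glutathione transferase genes GSTP1 (-1.72 ± 0.20, adjusted p = 8.78e-07) and MGST2 (-2.13 ± 0.22, adjusted p = 2.45e-07) fell in S2D30. Of the 24 genes, 7 rose in both lines and 4 fell in both.

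Uptake carriers bring drugs and nutrients in, opposite to the pumps, and were listed here together with other drug carriers. Of the 25 listed genes, 14 were tested in SK-N-AS and 13 in GIMEN. In S1D4, 4 rose and 4 fell, in S2D4, 4 rose and 5 fell, in S2D30, 8 rose and 5 fell, and in GIMEN D30, 6 rose and 4 fell. Called shares were 57.1%, 64.3%, 92.9% and 76.9%, beside 40.1%, 63.1%, 70.3% and 71.4% of all genes. SLCO4A1, an organic anion carrier that takes up thyroid hormone, rose in S2D4 (2.83 ± 0.19, adjusted p = 2.8e-09) and in GIMEN D30 (1.97 ± 0.12, adjusted p = 5.94e-08). SLC22A4, an organic cation and ergothioneine carrier, rose in S2D4 (4.38 ± 0.29, adjusted p = 1.65e-09) and in GIMEN D30 (2.45 ± 0.17, adjusted p = 2.06e-07). SLCO2B1 rose in S2D30 (5.15 ± 0.45, adjusted p = 2.99e-08) and the reduced folate carrier SLC19A1 fell (-1.77 ± 0.07, adjusted p = 1.47e-12). The nucleoside carriers SLC29A1 (-1.45 ± 0.14, adjusted p = 1.24e-07) and SLC29A2 (-2.05 ± 0.14, adjusted p = 3.48e-09) fell in S2D4. SLCO1B3, known for drug and bile salt uptake in hepatocytes, was at 0 in each untreated SK-N-AS library and fell in GIMEN D30 (-1.35 ± 0.30, adjusted p = 0.00167).

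All 10 listed partners and anchors of the pumps were tested in both lines. In S1D4, 1 rose and 2 fell, in S2D4, 3 rose and 6 fell, in S2D30, 5 rose and 4 fell, and in GIMEN D30, 5 rose and 3 fell. Called shares were 30.0%, 90.0%, 90.0% and 80.0%, beside 40.1%, 63.1%, 70.3% and 71.4% of all genes. MVP, the major vault protein known from drug-resistant cells, went from 42.7 to 52.0 CPM in untreated SK-N-AS to 190.5 to 218.2 CPM in S2D30 (2.08 ± 0.09, adjusted p = 4.69e-12). FLOT1, a membrane raft protein, fell in S2D4 (-0.99 ± 0.17, adjusted p = 6.63e-05) and rose in S2D30 (1.15 ± 0.17, adjusted p = 9.92e-06). In GIMEN D30 ezrin, EZR, which ties membrane proteins to actin, fell (-0.82 ± 0.05, adjusted p = 1.17e-07), as did caveolin 1, CAV1 (-1.42 ± 0.11, adjusted p = 5.03e-07), while moesin, MSN, rose (0.54 ± 0.06, adjusted p = 1.25e-05).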

How the data were processed

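Total RNA was sequenced as paired-end reads on an Illumina HiSeq X, per the labels' protocols. The deposited values are raw counts with a gene symbol per row, without normalization by the authors, as whole numbers that sum to 16456484 to 37506800 per library. The aligner, counter, genome build, annotation and strand setting are not given in the sources used here. Depth sets the precision: 1 count was 0.0247 CPM in the deepest library.

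Counts were fitted in R 4.3.3 with edgeR 4.0.16 (limma 3.58.1): filterByExpr (minimum count 10, minimum total 15), TMM scaling, quasi-likelihood F-test and Benjamini-Hochberg adjustment over all genes, with a threshold of 0.05. Models held the 16 SK-N-AS libraries (15810 genes), the 6 GIMEN libraries (13517 genes) or the 14 untreated and 30-day libraries (16246 genes). SE and 95% intervals come from the fit, and SD is over libraries. The scripts were tested on simulated data. A simulation of S2D30 against untreated cells over 15810 genes recovered 16.4% of 1.5-fold, 76.1% of 2-fold and 100.0% of 4-fold changes. Few genes were changed in it, and it gave 133 calls, where the data gave 11107. The adjusted p depends on that share, so these figures do not give the power in the data.

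All 8 pump genes are named. From each of 5 gene lists, the names come from the 2 largest rises and 2 largest falls among called genes with a mean of at least 1 CPM, in each comparison with untreated cells (46 genes). Some genes that this rule gives are not reported here. The 3 nearest genes to each tested pump gene are also named (except 1 with a clone name), and the marker genes named singly were chosen after their values were seen. Members and lists were chosen with earlier results of these data known. Alternatives were DESeq2 1.42.0 or its size factors, upper-quartile factors, other filters, a replicate block, models of the compared groups alone, a required absolute log2 fold change of 1 and leaving out each library. Added after the data were seen were removal of GC content and length trends, a term for replicates 3 and 4 of the untreated and S1D4 groups, and merged exon length.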

Additional observations from a re-analysis of the deposited data

Results flagged for a closer look

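In 5 of 29 combinations of a pump gene and a group of 4 SK-N-AS libraries, 1 library lay apart from the rest by Dixon's criterion, which flags about 1 in 20 groups by chance. ABCC3 was at 52.7 CPM in S2D4 replicate 4, where the others were at 15.8 to 18.5 CPM. In the same library ABCC4 was at 20.6 CPM, where the others were at 41.0 to 44.9 CPM, and ABCC5 was at 36.3 CPM, where the others were at 67.2 to 73.2 CPM. ABCC4 was at 35.8 CPM in untreated replicate 4, where the others were at 25.1 to 26.4 CPM. ABCB1 was at 12.2 CPM in S1D4 replicate 3, where the others were at 10.5 or 10.6 CPM.

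The 30-day change differed between SK-N-AS and GIMEN by the edgeR interaction test for 3 pump genes. The log2 difference was -1.5 for ABCC1, -2.54 for ABCC3 and -0.57 for ABCC5, lower in SK-N-AS each time.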

How the results depend on the processing

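Of 495 single-gene values under alternatives that kept all libraries, 451 kept direction and call, 25 lost a call, 10 gained one and 9 reversed; of 429 values with 1 library left out, these counts were 382, 16, 7 and 24. A required absolute log2 fold change of at least 1 left 0 called pump genes in S1D4, 0 in S2D4, 1 in S2D30, 0 from S1D4 to S2D4, 1 from S2D4 to S2D30 and 3 in GIMEN D30, by construction. Of all genes, 12.3%, 29%, 37.0%, 21.7%, 19.7% and 24.7% passed it in these comparisons. With 1 library left out, the called pump genes numbered 2 in S1D4 and 2 to 3 in S2D4 and in S2D30. From S1D4 to S2D4 they numbered 2 to 5 (5 without S2D4 replicate 4), and from S2D4 to S2D30, 1 to 3 (1 without S2D30 replicate 1 or 4). They numbered 5 in GIMEN D30 and 3 to 4 in the interaction (ABCB4, on single counts in SK-N-AS, being the 4th). Between untreated lines they numbered 6, ABCB4 among them, which passed the filter only through GIMEN. The values that reversed had no call with all libraries in the main model. With all libraries, ABCC5 in S2D4 against untreated cells was -0.02 under upper-quartile factors and -0.10 with GC content and length trends removed. ABCC2 from S1D4 to S2D4 was -0.07 under upper-quartile factors, -0.09 with trends removed and -0.27 with the term for replicates 3 and 4. ABCC3 from S1D4 to S2D4 was -0.09, -0.07 and -0.02 under upper-quartile factors, the replicate block and that term, and ABCC4 in the interaction was 0.03 with that term. With 1 library left out, log2 changes crossed 0 for ABCB1 in GIMEN D30 (-0.04 to 0.72) and S1D4 (-0.02 to 0.14), for ABCC2 in S1D4 (-0.02 to 0.47), from S1D4 to S2D4 (-0.15 to 0.36) and in the interaction (-0.20 to 0.10), for ABCC3 in S2D4 against untreated cells (-0.19 to 0.58) and from S1D4 to S2D4 (-0.56 to 0.21), for ABCC4 in GIMEN D30 (-0.15 to 0.01) and the interaction (-0.18 to 0.01), and for ABCC5 in S2D4 against untreated cells (-0.05 to 0.23) and from S2D4 to S2D30 (-0.07 to 0.21). ABCC3 from S1D4 to S2D4 passed at -0.56 without S2D4 replicate 4. The cause was not tested.

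The labels do not say whether replicate numbers pair libraries. Of 27 same-numbered pairs, 5 had deviations correlated above 0.1 (range -0.11 to 0.31). Among them were 3 of the 4 pairs of untreated and S1D4 libraries (0.28 to 0.31, the other at 0.03). Whether those libraries share a culture or batch was not tested. The replicate block moved no count of called pump genes by over 1.5 times; it ended the fall of ABCC4 from S2D4 to S2D30 (-0.51, adjusted p = 0.0527) and let ABCC1 pass there (0.22, adjusted p = 0.0213). The fall of ABCB1 in S2D30 against untreated cells was lost with no filter (adjusted p = 0.0708), with the compared groups alone (0.0532) and with the term for replicates 3 and 4 (0.0759). Upper-quartile factors shifted the median of all genes by -0.10 from S1D4 to S2D4 and by 0.15 between untreated lines. The coding-length alternative was not run. Depth limits ABCG2 in each group, ABCB4 in SK-N-AS and ABCB1 in GIMEN.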
